A study of Mus musculus with 8 samples.

Results

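The aryl hydrocarbon receptor (AHR) response was followed through 7 genes that were listed by name: the receptor gene Ahr, its partner gene Arnt, the repressor gene Ahrr, and the target genes Tiparp, Cyp1a1, Cyp1b1 and Aldh3a1. All 7 were found by gene symbol among the 18770 genes of the expression table, and all 7 passed a filter on low values that left 15964 genes for testing. Messenger RNA was sequenced from the dorsal skin of C57BL/6 wildtype male mice (C57BL/6J in the methods of the study), 7 to 8 weeks old, after hair on the back had been depilated. The 4 mice of the vehicle control group (VC) received 20 µl of 65% ethanol on the skin, and the 4 mice of the alpinetin group (AP) received 20 µl of alpinetin at 3 mg/ml in 65% ethanol. Both were treated once daily from the day after depilation, and skin was taken at day 4 (D4). Alpinetin is a plant flavonoid, a family of compounds that includes known ligands of AHR. By the methods of the study, the tissue was dermis with hair follicles, and the keratinocytes of the epidermis between follicles had been taken off. Each library is a mixture of cell types. The vehicle itself is an alcohol solution, no untreated skin was analysed here, and every value is from D4.

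AHR is a transcription factor that waits in the cytosol in a complex with HSP90 and other chaperones. When a ligand binds, AHR moves to the nucleus, pairs with ARNT, and the pair binds DNA at a short core sequence near genes of xenobiotic metabolism. Cyp1a1 and Cyp1b1 encode cytochrome P450 enzymes that oxidise many AHR ligands, while AHRR competes for ARNT and TIPARP, an ADP-ribosyltransferase, restrains AHR in turn. In skin the receptor is present in keratinocytes, fibroblasts and immune cells, and it is known for its part in barrier formation and in responses to pollutants, light and plant compounds.

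The receptor gene was higher in AP skin, while the classical target genes did not pass the test in either direction. Ahr rose 2.68-fold, and it was the only one of the 7 genes to pass an adjusted p of 0.05. Arnt, Tiparp and Aldh3a1 had higher means in AP without passing. Cyp1b1, Ahrr and Cyp1a1 had log2 fold changes of 0.23, 0.03 and -0.24. Among all genes tested, 6.33% were called higher and 4% lower in AP, a background from which 1 call in 7 genes cannot be set apart. With libraries scaled by total reads, mitochondrial ones included, 5 of the 7 genes and 54.1% of all genes were called, and the median of all genes moved by 0.84 on the log2 scale, from 0.06 to 0.90. Values below are normalized counts, which are reads divided by 1 size factor per library. Fold changes compare AP with VC on the log2(value + 1) scale, and p-values are from limma, adjusted over all genes tested.

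**Figure D1:**
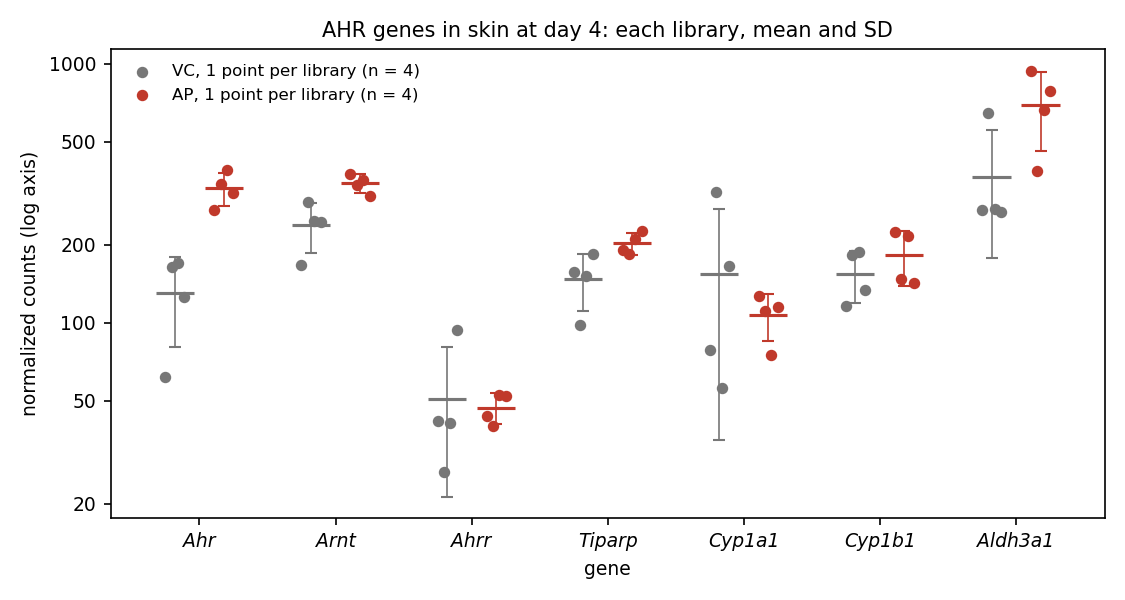
Normalized counts (log axis) of the 7 AHR genes in each of the 8 libraries, with 4 VC libraries in grey and 4 AP libraries in red; horizontal bars are group means and error bars are SD. Ahr and Arnt are the genes whose groups do not overlap, with the lowest AP library of Ahr at 272 and the highest VC library at 169.

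The libraries differed in depth and in composition before any gene was compared. Between 6454563 and 7264151 reads per VC library and between 8507783 and 11190113 reads per AP library fell on the genes of the table. Mitochondrially encoded genes took 54.3%, 44.9%, 42.1% and 52.3% of the reads in libraries VC.1 to VC.4. In AP.1 to AP.4 they took 11.1%, 7.85%, 5.32% and 10.3%, so no AP library came near a VC library in this share. The reads left on other genes numbered 3080758 to 3762217 in VC and 7561598 to 10594787 in AP. A gene with 3 reads, taken as the floor, stands at 4.10 to 5.63 normalized counts in VC and at 1.49 to 2.18 in AP. All 7 genes lay above it in every library, from 18 reads for Ahrr in VC.2 upward.

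Ahr encodes the ligand-binding receptor, and its gene (ENSMUSG00000019256) lies on the minus strand of chr12:35497974-35535038 in mm10. It measured 61.8, 164, 169 and 126 normalized counts in VC.1 to VC.4, against 272, 342, 389 and 316 in AP.1 to AP.4. Every AP library lay above every VC library, and VC.1 was the lowest of all. The group means were 130.2 ± 49.6 in VC and 329.6 ± 48.8 in AP (SD, n = 4 each), from 34 to 124 reads per VC library and 375 to 780 per AP library. The log2 fold change was 1.42 (SE 0.30, 95% interval 0.77 to 2.07, adjusted p = 0.0183), and a 2-sided exact permutation test over the 70 assignments gave p = 0.0286, the smallest it can give. Ahr also passed the fold and p thresholds of the study's methods (over 1.5-fold, with p under 0.01 before adjustment), applied here to limma in place of DESeq2, by which 8.26% of all genes tested were higher in AP. Leaving out AP.2, AP.3 or AP.4 kept the log2 fold change at 1.40, 1.34 or 1.44 but ended the call, with adjusted p of 0.0501, 0.0667 and 0.0528. So did the test without its intensity trend (adjusted p = 0.0527). With total reads the log2 fold change was 2.29, or 1.39 above the median of all genes under that scaling. With a transcript length trend removed, the log2 fold change of Ahr was 1.16 (adjusted p = 0.0330 in limma). Over all 23 alternative fits, the adjusted p ran from 0.000318 to 0.0667.

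The mitochondrial read share moved with Ahr inside each group as well as between the groups. Among the VC libraries, Ahr was highest in VC.3, which had the smallest share, followed by VC.2, VC.4 and VC.1. Among the AP libraries it was highest in AP.3, followed by AP.2, AP.4 and AP.1, again from the smallest share to the largest. This inverse order in both groups was found in 52 of 15964 genes, and the order over all 8 libraries in 14, with Ahr among both and none of the other members. The opposite order over all 8 libraries was found in 28 genes. The order was noticed after the values were seen, and the part of the mitochondrial share in the result was not tested. Without VC.1 and VC.4, the VC libraries with over 50% mitochondrial reads, the log2 fold change of Ahr was 0.97 (adjusted p = 0.0469).

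**Figure D2:**
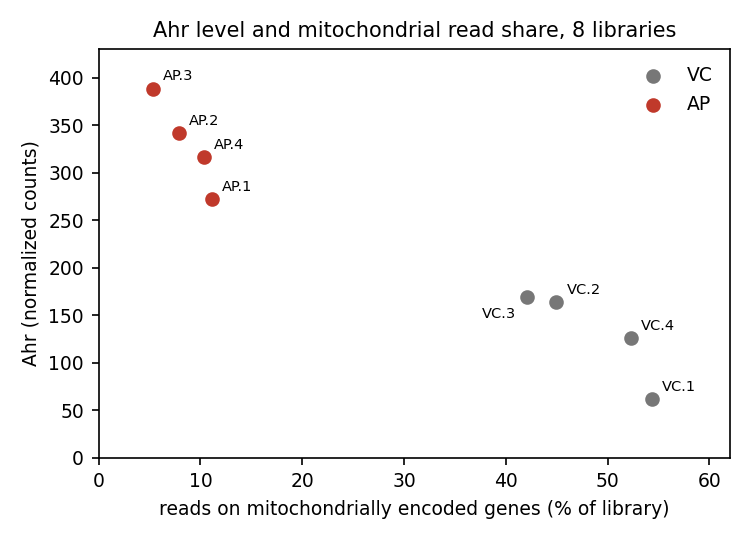
Ahr in normalized counts against the percentage of each library's reads on mitochondrially encoded genes, 1 labelled point per library, VC in grey and AP in red. Ahr falls from 389 in AP.3, at 5.32%, to 61.8 in VC.1, at 54.3%, with no library out of order.

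A long noncoding RNA gene, Gm48236, is annotated on the strand opposite Ahr and shares 618 bases with its locus. It ranged from 3.64 to 9.38 normalized counts in VC and from 18.1 to 40.9 in AP, and it rose by a log2 fold change of 1.95 (adjusted p = 0.0313), called in 17 of 23 alternative fits and not without AP.2, AP.3 or AP.4, without VC.1 and VC.4 together, in limma-voom or with reads drawn down (adjusted p up to 0.123). Its VC values lie around the floor of 3 reads. The sources used here do not state that reads were counted by strand, so reads from the shared bases could belong to either gene. Counts of Gm48236 were far below those of Ahr in each library.

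Arnt encodes the partner through which AHR binds DNA, and it also pairs with the hypoxia factors. Its gene (ENSMUSG00000015522) lies on the plus strand of chr3:95434388-95497240. It measured 167, 293, 247 and 244 normalized counts in VC.1 to VC.4, against 375, 341, 356 and 307 in AP.1 to AP.4. The groups did not overlap, though the lowest AP library and the highest VC library differed by less than the SD within VC (51.9). Among all genes tested, 10.3% had every AP library above every VC library, and 2 of the 7 genes, Ahr and Arnt, did. The log2 fold change of Arnt was 0.56 (95% interval 0.14 to 0.98), and its adjusted p of 0.0782 did not pass. With scaling by total reads it was called at 1.43, which lies 0.53 above the median of all genes under that scaling.

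The balance between receptor and partner can be read inside a library, where the scaling between libraries drops out. On the log2 scale, the ratio of Ahr to Arnt came to -1.44, -0.83, -0.55 and -0.96 in VC.1 to VC.4, against -0.46, 0.0046, 0.13 and 0.04 in AP.1 to AP.4. The mean ratio was 0.87 higher in AP, and every AP library lay above every VC library, as for 2% of the other genes tested when set against Arnt. For 24.8% of them every AP library lay below. In VC every library thus had fewer Ahr than Arnt counts, while in 3 AP libraries the counts were about level or tipped to Ahr. The ratios of Ahrr, Tiparp, Cyp1a1, Cyp1b1 and Aldh3a1 to Arnt all overlapped between the groups.

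Ahrr encodes the AHR repressor, itself a target of the receptor, on the minus strand of chr13:74211118-74292331 (ENSMUSG00000021575). It measured 41.8, 26.6, 41.0 and 93.8 normalized counts in VC.1 to VC.4, against 43.5, 39.9, 52.3 and 52.2 in AP.1 to AP.4. The AP libraries lay inside the range of the VC libraries, which differed 3.52-fold among themselves. The log2 fold change was 0.03 (95% interval -0.81 to 0.87, adjusted p = 0.963), an interval that does not exclude a 1.83-fold rise. With total reads the log2 fold change was 0.886 (adjusted p = 0.0672), or 0.014 below the median of all genes.

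Tiparp encodes the ADP-ribosyltransferase that marks AHR and limits its activity, and is a target of AHR as well (ENSMUSG00000034640, plus strand, chr3:65528410-65555518). It measured 156, 97.5, 152 and 184 normalized counts in VC.1 to VC.4, against 191, 183, 210.3 and 227 in AP.1 to AP.4. The AP libraries stood above all VC libraries but VC.4, with which AP.2 was level. The log2 fold change was 0.49 (95% interval 0.01 to 0.97, adjusted p = 0.158), and with total reads it was called at 1.36, or 0.46 above the median of all genes.

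Cyp1a1, the P450 gene most often used as a readout of AHR, spans chr9:57687928-57703824 on the plus strand (ENSMUSG00000032315). It measured 78.2, 319, 56.0 and 165 normalized counts in VC.1 to VC.4, against 126, 111, 75.2 and 114 in AP.1 to AP.4. All AP libraries lay inside the VC range, in which VC.2 was 5.70 times VC.3. The means were 155 ± 119 in VC and 107 ± 21.9 in AP (SD, n = 4 each). AP against VC gave a log2 fold change of -0.24 (95% interval -1.24 to 0.77, adjusted p = 0.761). The log2 fold change was -0.54 in DESeq2 (adjusted p = 0.455) and -0.55 in edgeR (adjusted p = 0.438). Its sign turned without VC.2, to 0.22, which did not pass the test. With total reads the value was 0.63, which lies 0.27 below the median of all genes under that scaling, against 0.29 below it in the main comparison.

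Cyp1b1 encodes the related P450 that is also expressed in fibroblasts, on the minus strand of chr17:79701537-79715061 (ENSMUSG00000024087). It measured 116, 182, 187 and 133 normalized counts in VC.1 to VC.4, against 223, 148, 216 and 142 in AP.1 to AP.4. AP.1 and AP.3 stood above the VC libraries and the other two AP libraries inside their range. Its log2 fold change was 0.23 (95% interval -0.29 to 0.76, adjusted p = 0.540). With total reads it was called at 1.10, which is 0.20 above the median of all genes, and without VC.1 and VC.4 its sign turned, to -0.049.

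Aldh3a1 encodes an aldehyde dehydrogenase that belongs to the AHR gene battery and is abundant in surface epithelia (ENSMUSG00000019102, plus strand, chr11:61207537-61218421). It measured 273, 646, 274 and 268 normalized counts in VC.1 to VC.4, against 940.0, 384, 664 and 786 in AP.1 to AP.4. The groups overlapped through VC.2, which was higher than AP.2, and the other 3 VC libraries lay close together below all of AP. Its log2 fold change was 0.96 (95% interval 0.25 to 1.68, adjusted p = 0.0771), with p = 0.0571 in the exact permutation test. Without VC.2 it was called, at 1.27 (adjusted p = 0.0233). It was also called with total reads, at 1.83 or 0.93 above the median of all genes. Without VC.1 and VC.4 its adjusted p was 0.345, the highest of the 23 alternatives.

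Per kilobase of the longest annotated transcript, Aldh3a1 stood at the top of the 7 genes in both groups and Ahrr at the bottom. In VC the levels in normalized counts per kilobase ran from 211 ± 108 for Aldh3a1 through 57.3 ± 44.3 for Cyp1a1, 55.0 ± 12.0 for Arnt, 35.2 ± 8.61 for Tiparp, 30.1 ± 6.86 for Cyp1b1 and 23.5 ± 8.93 for Ahr to 9.96 ± 5.78 for Ahrr (SD, n = 4). Only the step from Aldh3a1 to Cyp1a1 separated neighbours whose libraries did not overlap. In AP they ran from 401 ± 136 for Aldh3a1 through 79.7 ± 6.67 for Arnt, 59.4 ± 8.79 for Ahr, 48.4 ± 4.68 for Tiparp, 39.5 ± 8.14 for Cyp1a1 and 35.5 ± 8.47 for Cyp1b1 to 9.21 ± 1.23 for Ahrr (SD, n = 4). The neighbours Ahr and Tiparp, Tiparp and Cyp1a1, and Cyp1a1 and Cyp1b1 overlapped there. Ahr was thus next to last in VC and at rank 3 in AP, whichever library was left out. Cyp1a1 stood at rank 2 in VC and rank 5 in AP, but without VC.2 its VC level was 37.0 per kilobase, at rank 4 behind Arnt and Tiparp.

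The wider pathway was described by lists of its other genes, by the count called and the median log2 fold change, beside a median of 0.06 over all genes tested. Of all genes tested, 6.33% were called higher and 4% lower in AP. Of 9 genes of the cytosolic complex and its turnover, 1 fell and none rose, with a median of 0.03. That gene was Stub1, which encodes the ubiquitin ligase CHIP that can target AHR, and it fell by 0.84 on the log2 scale (adjusted p = 0.0103). Stub1 measured 1423, 1096.5, 1178 and 1179 normalized counts in VC.1 to VC.4, against 748, 615, 649 and 712 in AP.1 to AP.4, so its groups did not overlap, as in the 8.91% of all genes with every AP library below every VC library. With total reads, which lift the median of all genes, its log2 fold change was 0.034 (adjusted p = 0.868), or 0.87 below that median, against 0.89 below it in the main comparison. Of the 9 genes, 4 had an unadjusted p under 0.05, in both directions, and DESeq2 called 3, beside 19% of all genes called by DESeq2. No share of all genes is given at an unadjusted p under 0.05. Counts at that threshold therefore cannot be set against a background, here and in the lists below.

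Among 14 measured factors and coactivators related to ARNT, 3 rose, none fell, and the median was 0.57, beside 6.33% of all genes tested called higher in AP. Hif1a and Epas1 encode the hypoxia factors that share ARNT with AHR, and Ep300 a histone acetyltransferase that serves many transcription factors. Hif1a rose by a log2 fold change of 0.93 (adjusted p = 0.0184), with 356 to 465 normalized counts in VC and 537 to 1005 in AP. Epas1 rose by 0.93 (adjusted p = 0.0338) and Ep300 by 1.07 (adjusted p = 0.0198), and for both the groups did not overlap. Every AP library lay above every VC library in 10.3% of all genes tested. Ep300 was called in 17 of 23 alternative fits (adjusted p up to 0.0922), and not without AP.2, AP.3 or AP.4, without VC.1 and VC.4 together, without the intensity trend or with the length trend removed. Hif1a was called in 19 (up to 0.0824), and not without AP.3 or AP.4, without VC.1 and VC.4 together or without the intensity trend. Epas1 was called in 14 (up to 0.107), and not in those same fits, without any single VC library or with the length trend removed. Of the 14 genes, 7 had an unadjusted p under 0.05, a threshold without a share over all genes here. DESeq2 called 5, beside 19% of all genes. Sim2 had no row in the table.

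Of 15 other reported AHR target genes, 3 rose, none fell, and the median was 0.65, beside 6.33% of all genes tested called higher in AP. An unadjusted p under 0.05 was found for 9, some of them lower in AP, and DESeq2 called 6, beside 19% of all genes. No share of all genes is given at the unadjusted threshold, so the 9 cannot be set against a background. Ptgs2, the inducible cyclooxygenase, measured 1.88 to 5.46 normalized counts in VC, 1 to 4 reads per library, and 52.2 to 82.3 in AP. Its log2 fold change of 3.70 (adjusted p = 0.00237) thus rests on VC levels at about the floor. Areg, an EGF receptor ligand, rose by 2.93 (adjusted p = 0.0441) with overlapping groups, and it had 1 read in VC.1 and in VC.4. It was called in 11 of 23 alternative fits (adjusted p up to 0.182), and among those that left out 1 library only without AP.1 or VC.3. Serpinb2, a protease inhibitor of keratinocytes, rose by 2.80 (adjusted p = 0.0141), from 24.4 to 143 normalized counts in VC to 297 to 933 in AP, and it was not called without VC.1 and VC.4 together (adjusted p = 0.0586).

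The lists closest to ligand metabolism held no call, beside 10.3% of all genes called. In lists this short, 0 calls cannot be set apart from that share. Of 7 tested enzymes of the AHR battery beside the members, limma called 0 (median 0.40), with 1 at an unadjusted p under 0.05 and 0 by edgeR, DESeq2 or limma-voom. Cyp1a2 had no row, and Ugt1a6a and Ugt1a6b did not pass the filter. Of 8 tested enzymes that make or consume kynurenine, a tryptophan product known as an AHR ligand, 0 were called by any of these tools (median 0.52), and 0 had an unadjusted p under 0.05. Ido1, Ido2, Aadat and Ddc of that list did not pass the filter. Of 12 other PARP family genes, relatives of Tiparp, 0 were called by any of these tools (median -0.08), with 2 at an unadjusted p under 0.05, in opposite directions.

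**Figure D3:**
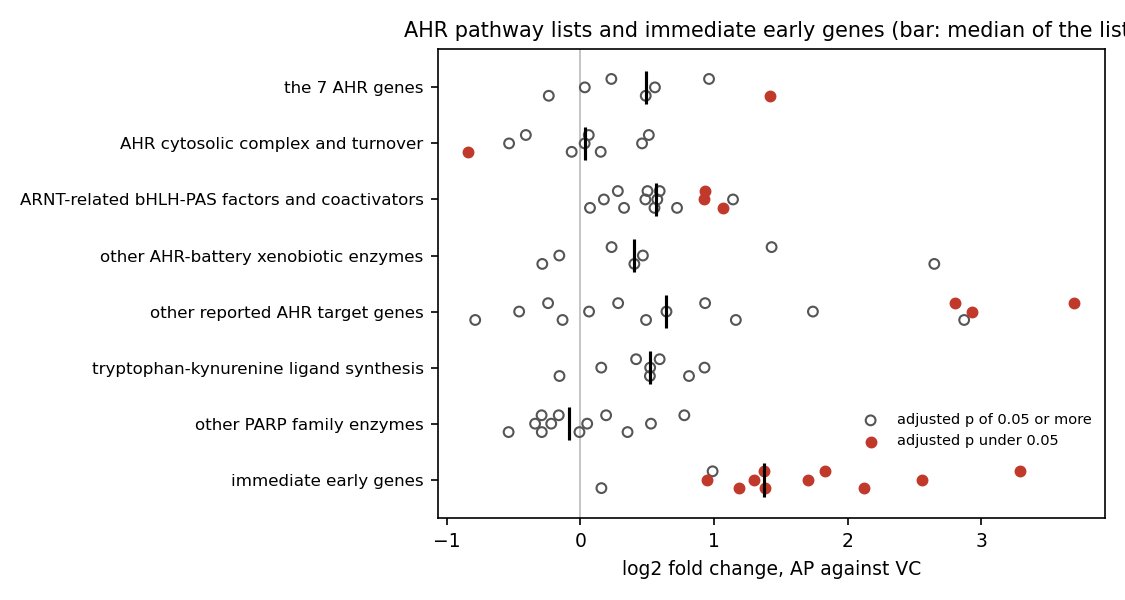
Log2 fold change of AP against VC for each tested gene, by list; filled red points passed an adjusted p of 0.05 and open points did not, and the black bar is the median of the list. Immediate early genes have 10 filled points of 12, against 1 of 7 for the AHR genes, beside 10.3% of all genes tested called in either direction.

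Immediate early genes, which respond within minutes to many stimuli and to tissue handling, moved together in the same libraries. Of 12, 10 rose and none fell, with a median of 1.38, beside 6.33% of all genes tested called higher in AP. Their summed level was 3049, 3140.3, 4465 and 3218 normalized counts in VC.1 to VC.4, against 12737, 9951, 11243 and 8876 in AP.1 to AP.4. Fosb rose by a log2 fold change of 3.29 (adjusted p = 0.00231), Fos by 2.56 (adjusted p = 0.000634), Dusp1 by 2.12, Junb by 1.83 and Zfp36 by 1.70. Jun was the most abundant in VC and Junb in AP, and every gene of the list had reads in every library. The part of this list in the Ahr and Ptgs2 results was not tested.

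Of 10 suprabasal keratinocyte markers, 8 rose, none fell, and the median log2 fold change was 3.11. Of all genes tested, limma called 6.33% higher in AP, and DESeq2 called 19% in either direction. Their summed level was 6036, 12364, 8520.4 and 5676 normalized counts in VC.1 to VC.4, against 41694, 40029, 117839 and 165277 in AP.1 to AP.4. Krt10, the keratin of differentiating epidermis, was the most abundant and rose by 3.85 (adjusted p = 0.00367), and Krt77 by 3.95 (adjusted p = 0.00435). Krt10 had 716 reads or more in each VC library, and it measured 1302 to 4085 normalized counts in VC and 15852 to 73322 in AP. These markers were thus present in both groups, although the methods of the study describe removal of the epidermis between follicles. How complete that removal was in each library was not tested. Of 8 basal keratinocyte markers, 3 rose (median 0.98, with 5 at an unadjusted p under 0.05 and 3 called by DESeq2), including Itga6 at 1.92 and Col17a1 at 1.73, the latter called in 16 of 23 alternative fits (adjusted p up to 0.139) and not without AP.3, AP.4, VC.1, VC.4 or both of the latter, without the intensity trend or with the length trend removed. Krt14, the most abundant, had a log2 fold change of 1.02 (adjusted p = 0.212), and the summed levels overlapped. In bulk skin, more cells of a type and more RNA per cell cannot be told apart, and the part of keratinocytes in the values of Ahr and Aldh3a1 was not tested.

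Vessel and T cell markers were the other marker lists whose summed levels did not overlap between the groups. For 8 endothelial markers these were 1433, 1401, 2776 and 2513 normalized counts in VC.1 to VC.4, against 4025, 9619, 3372 and 3688 in AP.1 to AP.4. Pecam1 rose by a log2 fold change of 1.44 (adjusted p = 0.0198) and Cdh5 by 1.75 (adjusted p = 0.0386), none fell, and the most abundant was Vwf in VC and Pecam1 in AP. An unadjusted p under 0.05 was found for 7 of the 8, and DESeq2 called 7, while edgeR and limma-voom called 2 and TMM scaling 4. Of all genes, DESeq2 called 19%, edgeR 10.7%, limma-voom 9.01% and TMM scaling 10.3%, and no share is given at the unadjusted threshold. Cdh5 was called in 15 of 23 alternative fits (adjusted p up to 0.0949), and not without AP.2, AP.3, AP.4, VC.1 or VC.2, without VC.1 and VC.4 together, without the intensity trend or with the length trend removed. Pecam1 was called in 21 (up to 0.0869), and not without VC.1 and VC.4 together or without the intensity trend. The sums of 6 pericyte markers were 1035, 1069.9, 1557 and 1646 in VC, and 2610.3, 3942, 2211 and 1809.6 in AP. Notch3 rose by 1.93 (adjusted p = 0.00684) and Kcnj8 by 1.54 (adjusted p = 0.0496), while Rgs5 did not pass (0.60, adjusted p = 0.288). Rgs5 was the most abundant in VC and Notch3 in AP, and of the 6 genes 3 had an unadjusted p under 0.05 and DESeq2 called 2. Kcnj8 was called in 8 of 23 alternative fits (adjusted p up to 0.110), and among those that left out 1 library only without VC.4. The sums of 6 T cell markers were 89.1, 108, 132 and 69.4 in VC, and 139, 153, 159 and 265 in AP. Trdc, the constant region of the T cell receptor delta chain, rose by 1.86 (adjusted p = 0.0440). It was called in 10 of 23 alternative fits (adjusted p up to 0.136), and among those that left out 1 library only without VC.3. Lck was the most abundant in VC, with a log2 fold change of -0.26 (adjusted p = 0.680), Cd3g was the most abundant in AP, and Cd3d had 0 reads in part of the libraries. Of the 6 genes, 4 had an unadjusted p under 0.05 and DESeq2 called 1. The part of vessels and T cells in the Ahr result was not tested.

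The remaining marker lists overlapped between the groups in their sums. Of all genes tested, limma called 10.3%, edgeR 10.7%, DESeq2 19% and limma-voom 9.01%. No share of all genes is given at an unadjusted p under 0.05, so counts at that threshold cannot be set against a background. Of 6 Langerhans and dendritic cell markers, 1 rose and none fell, the median was -0.39, and 4 lay below 0, among them the most abundant, Cd74. The gene that rose was Cd207, which encodes langerin, at 1.72 (adjusted p = 0.0224). It was called in 18 of 23 alternative fits (adjusted p up to 0.0721), and not without AP.3 or AP.4, without VC.1 and VC.4 together, in limma-voom or without the intensity trend. Fibroblast markers, led by Col3a1 in VC and Col1a1 in AP, summed to 81664 to 223583 normalized counts in VC, so the markers of dermis were present. They had the highest mean sum of the 12 marker lists in both groups, but not the highest sum in VC.2 and AP.4. In VC.2 basal keratinocyte markers summed to 83247 against 81664 for fibroblast markers. In AP.4 suprabasal and basal keratinocyte markers summed to 165277 and 146107, against 98400.7 for fibroblast markers. None of the 8 was called (median 0.49), with 3 at an unadjusted p under 0.05, not all in the same direction, and 1 called by DESeq2. The 10 hair follicle markers, led by Cd34 in VC and Krt71 in AP, held 0 calls (median 0.27), with 2 at an unadjusted p under 0.05, 1 by edgeR and 2 by DESeq2. The 9 sebaceous gland markers, led by Krt79, held 0 calls by any of the tools (median -0.39) and 0 at an unadjusted p under 0.05. The 6 macrophage markers, led by Lyz2, held 0 calls (median -0.88), with 4 at an unadjusted p under 0.05 and 2 by DESeq2. The 6 adipocyte markers, led by Fabp4, held 0 calls by any of the tools (median 0.26) and 2 at an unadjusted p under 0.05. The 6 skeletal muscle markers, led by Acta1, held 0 calls by any of the tools (median -1.61) and 5 at an unadjusted p under 0.05. Without AP.1, Acta1 was called, at -2.62 (adjusted p = 0.00279) against -1.92 with all libraries, and the mean muscle sum of AP was 7528 against 18591.5. In AP.1 the muscle sum was 51783 normalized counts, against 4591 to 10211.5 in the other AP libraries. Ahr was lowest of the AP group in AP.1, which also had the largest mitochondrial share of that group (11.1%). In VC the muscle sum was highest in VC.2 (57996.5), while Ahr was lowest in VC.1 (61.8, against 164 in VC.2). The part of muscle in the Ahr result was not tested.

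The genes whose values ran most like those of Ahr over the 8 libraries were Ggta1, 1700060J05Rik and Usp24. Their Pearson r with Ahr on the log2 scale was 0.988, 0.988 and 0.985 (n = 8), the highest among 11256 genes with a mean of at least 50 normalized counts. Ggta1, a galactosyltransferase gene, measured 70.9, 197, 187 and 154 normalized counts in VC.1 to VC.4, against 257, 352, 352 and 365 in AP.1 to AP.4. The 8 points share the difference between the groups, and their depth and mitochondrial share, so the r values describe these libraries only. Ggta1 and 1700060J05Rik, like Ahr, were not called without AP.2, AP.3 or AP.4 or without the intensity trend, and unlike Ahr not without VC.1 and VC.4 together (adjusted p up to 0.0921 and 0.0925 over 23 alternative fits). Usp24 was called in 22 of them, and not with the length trend removed (adjusted p = 0.0508).

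The promoters of the 7 genes were read for the core of the AHR and ARNT site. RefSeq windows (GRCm38.p6) of 300 bases, 250 before to 50 after the gene start, were found for 5 of the 7 genes: Arnt, Ahrr, Tiparp, Cyp1a1 and Cyp1b1. Ahr and Aldh3a1 were not in that table. The 5-letter core GCGTG, searched on both strands, was in all 5 windows, against 32.4% of 32851 windows of all genes. The longer TNGCGTG, which contains the core, was in 1 of the 5, that of Ahrr, against 5.07% of all windows. A match is a description of letters and not of binding, and none of these 5 genes passed the test between AP and VC. The windows held 7 core sites, 3 of them in that of Ahrr. The stretches below show 1 site per gene, for Ahrr the one in the longer match, and are 45 bases long, written 5′ to 3′ on the strand of the gene, with the core, or its reverse complement CACGC, in capitals.
Arnt, chr3:95434341-95434385, plus strand: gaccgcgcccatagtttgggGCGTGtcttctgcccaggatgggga
Ahrr, chr13:74292334-74292378, minus strand: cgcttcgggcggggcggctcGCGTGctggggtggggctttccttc
Tiparp, chr3:65528257-65528301, plus strand: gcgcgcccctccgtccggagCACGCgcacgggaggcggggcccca
Cyp1a1, chr9:57697539-57697583, plus strand: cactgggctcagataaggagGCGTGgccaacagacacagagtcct
Cyp1b1, chr17:79715113-79715157, minus strand: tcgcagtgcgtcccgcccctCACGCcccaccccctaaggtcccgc
The capitals begin 29 bases before the RefSeq start for Arnt, 27 for Ahrr, 170 for Tiparp, 54 for Cyp1a1 and 76 for Cyp1b1. The other Ahrr sites begin 107 and 82 bases before the start. The stretches of Arnt, Ahrr, Tiparp and Cyp1b1 lie upstream of the gene in GENCODE M21, and that of Cyp1a1 lies in an intron there, since a longer transcript begins further upstream.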

How the data were processed

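Reads were cleaned, mapped to mm10 with STAR by the authors, counted per gene (featureCounts in the study's methods, HTSeq in the submitters' processing notes) and normalized with DESeq2. The deposited signal values are read counts divided by 1 size factor per library. All 150160 values were whole multiples of 1 step per library (within 0.02 reads), so reads were recovered. Further columns hold the authors' own comparison (mean, fold change, its error, statistic, p-values) and were not used. Library columns could be tied to a group but not to a single mouse.

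Genes that reached 3 normalized counts in 4 or more libraries were tested with limma 3.58.1 (R 4.3.3) on log2(value + 1), with an intensity trend and Benjamini-Hochberg adjustment over all 15964 genes. Called means an adjusted p under 0.05. The exact permutation test was 2-sided over 70 assignments. On recovered reads, edgeR 4.0.16 (quasi-likelihood) called 1715 genes, DESeq2 1.42.0 called 3039 and limma-voom 1438, beside 1650 in limma. Other alternatives were scalings, pseudocounts of 0.5 and 5, filters, reads drawn down to 3080758 per library outside mitochondrial genes, removal of a transcript length trend, and each library left out. Leaving out VC.1 and VC.4 together was chosen after the data were seen. Steps were tested on simulated data.

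The members and lists were chosen with earlier results of these data known, so lists are described by counts and medians without a test. Named were the members, called genes of each pathway list (at most 5 per direction), the most abundant and at most 2 called genes of each marker list, and the 3 genes most like Ahr among genes with a mean of at least 50. Gm48236, Jun, genes that lead a marker list in 1 group and genes that were not tested were named after their values were seen. Coordinates and lengths are from GENCODE M21.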

Additional observations from a re-analysis of the deposited data

Results flagged for a closer look

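Aldh3a1 in VC.2 stood far from the other VC libraries. It measured 646 normalized counts there, against 268 to 274 in the other 3, and the gap to the nearest took 0.973 of the range of the group on the log2 scale. Of 14 groups examined this way (7 genes in VC and in AP), it was the only 1 that stood apart, and chance alone gives about 1 in 20. VC.2 was also the highest VC library for Cyp1a1 (319 normalized counts), for Arnt (293) and, among 12 marker lists, for the summed levels of 4: suprabasal keratinocyte markers (12364), basal keratinocyte markers (83247), sebaceous gland markers (22196) and skeletal muscle markers (57996.5). Their part in the Aldh3a1 value was not tested.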

How the results depend on the processing

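Ahr was higher in AP in all 23 alternative fits and called in 19. Beside fits without AP.2, AP.3 or AP.4, the call was lost without the intensity trend (log2 fold change 1.42), where limma called 0 of the 7 genes and 592 genes in all. Scaling by total reads called 8735 genes in all (54.1%), 99.3% of them higher against 61.3% in the main comparison, and 5 of the 7 genes. Log2 fold changes were then 2.29 for Ahr, 1.43 for Arnt, 0.886 for Ahrr, 1.36 for Tiparp, 1.10 for Cyp1b1, 1.83 for Aldh3a1 and 0.63 for Cyp1a1. That scaling counts mitochondrial reads, whose share differed between the groups. Upper-quartile scaling put 49.9% of calls higher. DESeq2 called 3039 genes, removal of the length trend left 1092, and leaving out VC.1 and VC.4 left 386 and turned Cyp1b1 to -0.049.

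The sign of Ahrr was not stable, with log2 fold changes of 0.034 in the main fit, -0.026 with upper-quartile scaling, -0.099 in DESeq2, -0.10 in edgeR, -0.19 with the length trend removed and -0.072 with reads drawn down. Leaving out each library in turn gave 303 to 1899 called genes and 0 to 2 of the 7 genes. Log2 fold changes then ran from 1.10 to 1.58 for Ahr, -0.22 to 0.38 for Ahrr, -0.61 to 0.22 for Cyp1a1 and 0.79 to 1.27 for Aldh3a1. Fits without a library have fewer samples. For the others the cause was not tested.

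With total reads, beside 54.1% of all genes, those called were 6 of 9 of the cytosolic complex, 11 of 14 related to ARNT, 5 of 7 battery enzymes, 12 of 15 other targets, 2 of 8 kynurenine enzymes and 5 of 12 PARP genes. Of the markers they were 10 of 10 suprabasal, 8 of 8 basal, 7 of 10 hair follicle, 1 of 9 sebaceous, 7 of 8 fibroblast, 8 of 8 endothelial, 6 of 6 pericyte, 1 of 6 Langerhans, 1 of 6 macrophage, 4 of 6 T cell, 3 of 6 adipocyte and 0 of 6 muscle. All 12 immediate early genes were called. Of 27 called genes named beside the 7, 13 to 27 were called with the same direction under each alternative, the fewest without VC.1 and VC.4. With total reads, whose median is 0.90, Stub1 stood at 0.034 and Cd74 at 0.61, or 0.87 and 0.29 below the median, against 0.89 and 0.32 below it in the main fit. The sign of Cd74 turned without VC.4 (0.082, and -0.58 to 0.082 over all libraries left out) and without VC.1 and VC.4 (0.34). In VC, Ptgs2 and Areg had as few as 1 read in a library and Trdc and Cd3g as few as 2. With 4 mice per group, and mitochondrial share separating the groups, composition and treatment cannot be told apart.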
